A study of Mus musculus with 64 samples.

Results

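The comparison covered 12 of 64 bulk RNA-seq libraries from mouse spleen and lymph nodes. These were the 2 resting libraries titled GFP Treg and the 10 resting libraries titled minusFoxp3, and their members were taken from the library titles alone. The fit also held the 10 resting plusFoxp3 libraries, 22 libraries in all. The plusFoxp3 libraries entered no contrast. They served to estimate the spread between replicates and entered the count filter and the scaling of the libraries. GFP Treg cells came from untreated mice of the genotype Foxp3GFP, whose reporter allele makes functional Foxp3 protein. The minusFoxp3 cells, labelled Resting Treg wannabe, had the genotype Foxp3-LSLCD4-WT. Their Foxp3 allele (Foxp3LSL) carries a Thy1.1 reporter and a stop cassette between loxP sites, so the locus was transcribed without Foxp3 protein, and without a CreERT2 transgene the cassette could not be removed. The minusFoxp3 mice were untreated (day 0, D0) or had received 4-hydroxytamoxifen (4-OHT) 3, 7, 14 or 28 days earlier, with 2 libraries for each of the 5 days.

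Per the methods of the study, the minusFoxp3 cells came from heterozygous Foxp3LSL/WT females, which stay healthy because they also hold Treg cells that use the wild-type allele. CD4+ TCRb+ cells were sorted, by GFP or by Thy1.1 without GFP, with a resting gate that took CD44lo cells. For Treg wannabe cells, the study describes the resting gate as CD62Lhi CD44lo and the active gate as CD62Llo CD44hi. The sex of the Foxp3GFP mice was not given in the sources used here. Allele, mice, reporter and, for 8 of the 10 minusFoxp3 libraries, treatment differed together with the presence of Foxp3 protein. Their parts in a difference cannot be told apart. The question was which transcripts of resting cells with an active Foxp3 locus differ between cells with and without the protein.

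Treg cells are CD4 T cells that restrain immune responses, and mice or people without functional Foxp3 develop fatal autoimmunity. Foxp3 is a forkhead transcription factor that acts with cofactors to raise some genes and lower others. Treg cells depend on interleukin-2 (IL-2) from other cells, since they make little of it while carrying its high-affinity receptor. Resting Treg cells circulate through lymphoid organs with receptors such as CCR7, whereas effector Treg cells carry homing receptors for other tissues.

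Library totals were 51596041 and 54728456 read pairs in GFP Treg and 43302798 to 57049049 in minusFoxp3, and 33791 to 35949 genes were detected per library. Along the first principal component of the 1000 most variable genes, which held 34.6% of the variance, the GFP Treg libraries lay at 61.7 and 59.0 and the minusFoxp3 libraries between -14.3 and -9.92. No minusFoxp3 library lay near the GFP Treg libraries on this axis. Levels are given as CPM, read counts relative to a fixed library total. Differences are log2 fold changes of GFP Treg over the mean of the 5 minusFoxp3 days, with their standard errors (SE). Genes count as called where edgeR's quasi-likelihood test gave an adjusted p (Benjamini-Hochberg) under 0.05. Levels of different genes are not comparable, since CPM takes no account of transcript length.

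Foxp3 (chrX:7439883-7461484, GRCm39, plus strand) was at 657 and 635 CPM in the GFP Treg libraries and at 47.3 to 81.5 CPM, with a median of 63.8, in the 10 minusFoxp3 libraries. The group means were 646 ± 14.9 CPM (SD, n = 2) and 64.9 ± 10.8 CPM (SD, n = 10), and the log2 fold change was 3.36 (SE 0.11, edgeR adjusted p = 3.26e-11). The groups did not overlap, and every minusFoxp3 library still held Foxp3 reads. Counts were summed over the whole gene and do not separate transcripts of the reporter-null allele from functional ones. In bulk samples, fewer cells with a transcript and less transcript per cell cannot be told apart.

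Thy1, the gene whose Thy1.1 form the Foxp3LSL allele carries, was at 61.5 and 81.3 CPM in GFP Treg and 344 to 527 CPM, median 419, in minusFoxp3 libraries. Its log2 fold change was -2.54 (SE 0.19, edgeR adjusted p = 4.24e-07), without overlap, and reads from the inserted reporter and from the endogenous gene were not separated. Cd4, the coreceptor used in the sort, was at 537 and 457 CPM against 463 to 708 CPM, median 647, and was not called (edgeR adjusted p = 0.248). Of 11 genes that define CD4 T cells, 1 was called higher (Cd2) and 2 lower (Thy1 and Trac), 27.3% against 6.13% of all genes. All 11 were detected in each of the 12 libraries. The Cd2 call was lost without GFP Treg replicate 1 or 2 (adjusted p 0.355 and 0.107), and that of Trac too (0.0929 and 0.0882).

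**Figure D1:**
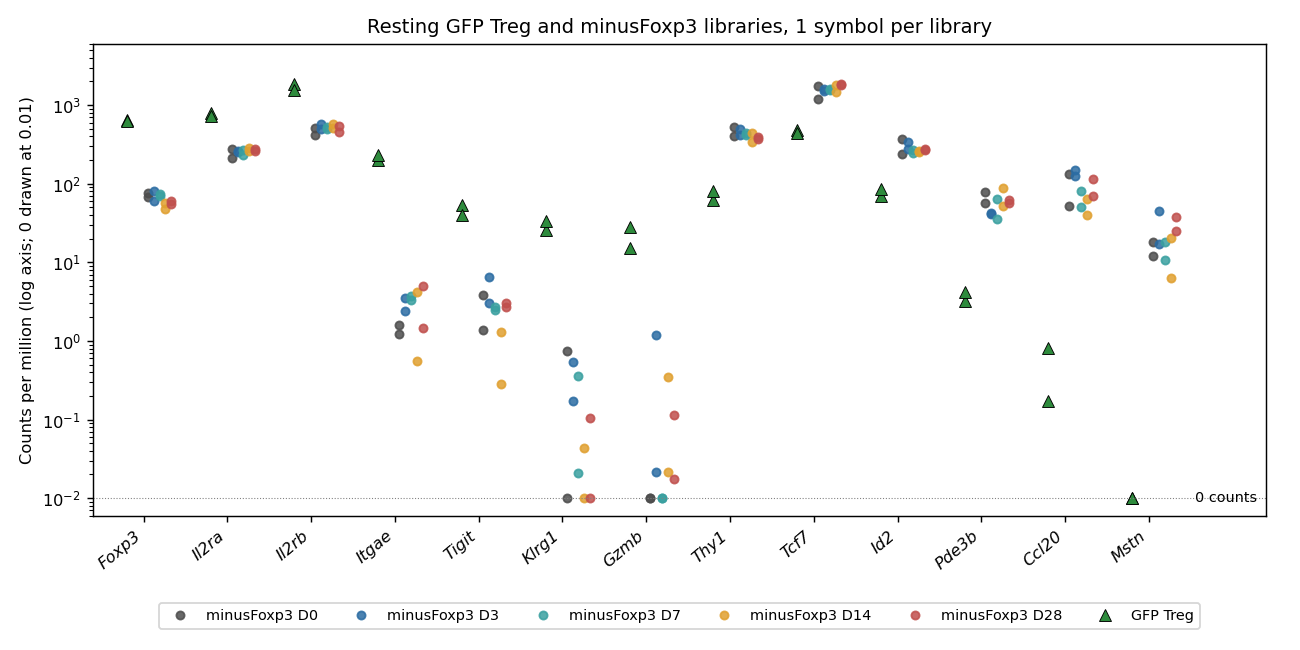
Level of 13 named genes in each resting library, in CPM on a log axis with 0 drawn at 0.01; green triangles are the 2 GFP Treg libraries and circles the 10 minusFoxp3 libraries, coloured by day. For each gene shown, the 2 triangles lie outside the range of the circles, with Foxp3 at 635 and 657 CPM against at most 81.5 CPM and Mstn at 0 in both GFP Treg libraries.

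Of 20520 genes tested, 1258 (6.13%) were called, 807 higher (3.93%) and 451 lower (2.2%) in GFP Treg cells. The median log2 fold change of all tested genes was -0.01. Among the called genes, 881 differed by 1 or more on the log2 scale (558 higher, 323 lower) and 426 by 2 or more (263 higher, 163 lower). The 2 GFP Treg libraries lay outside the range of the 10 minusFoxp3 libraries for 1176 of the called genes (93.5%) and for 2908 of all tested genes (14.2%). The number of calls rested on the GFP Treg libraries. Without GFP Treg replicate 1 it was 513, of which 489 were among the 1258, and without replicate 2 it was 600, of which 562 were, with no shared gene of opposite sign.

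**Figure D2:**
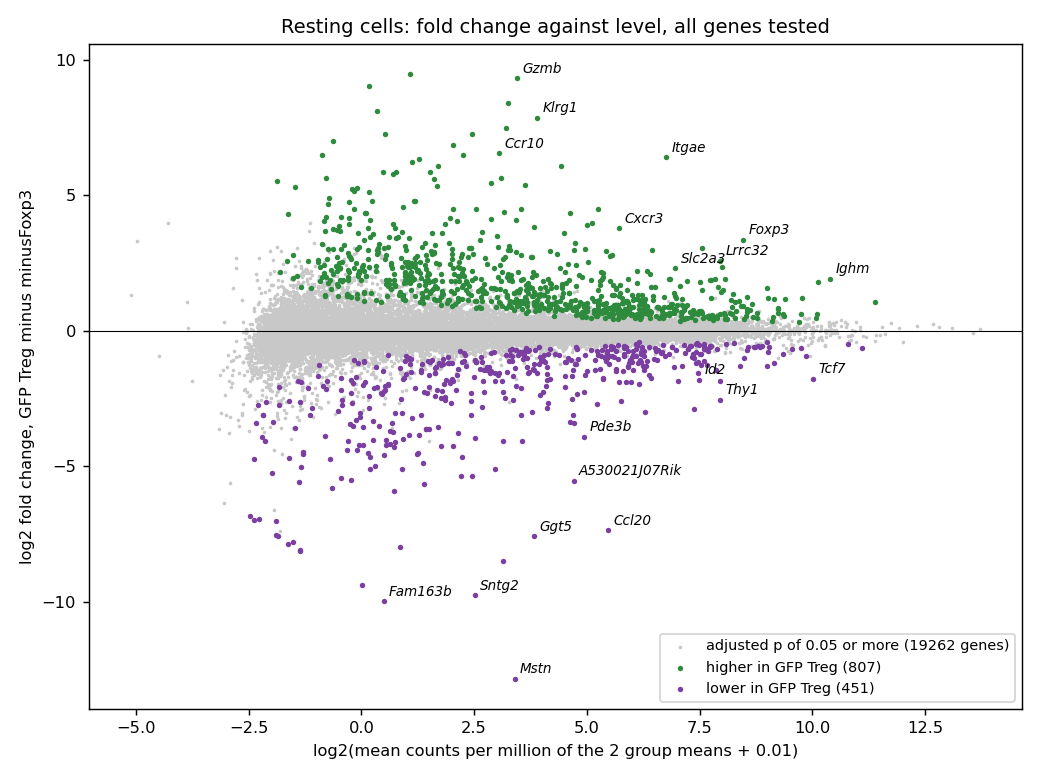
Log2 fold change of GFP Treg over minusFoxp3 cells against the log2 mean CPM of both groups, 1 point per tested gene; green points are the 807 genes called higher, purple points the 451 called lower and grey points the rest. Named genes are labelled, among them Foxp3 at 3.36, Gzmb at 9.31 and Mstn at -12.84 on the vertical axis, and the called genes are spread over the whole range of levels.

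A list of 30 genes known to be higher in Treg than in conventional CD4 T cells was tested in full. It holds Foxp3 itself. The lists below share members with it and with each other, so their counts are not separate observations. GFP Treg cells had 22 of them called higher and none lower (73.3%, against 6.13% of all genes), with a median log2 fold change of 1.19. Without GFP Treg replicate 1 the count was 15 and without replicate 2 it was 17. Itgae, the integrin CD103 that binds E-cadherin, was at 199 and 231 CPM in GFP Treg and 0.562 to 5.00 CPM, median 2.85, in minusFoxp3 libraries (log2 fold change 6.40, SE 0.37, edgeR adjusted p = 3.26e-08). Tigit, a coinhibitory receptor, was at 53.5 and 39.7 CPM against 0.281 to 6.47 CPM, median 2.69 (log2 fold change 4.33, SE 0.46). Fgl2, a secreted fibrinogen-like protein with suppressive activity, was at 69.8 and 59.0 CPM against 1.76 to 6.40 CPM, median 4.84 (log2 fold change 3.97, SE 0.32). None of these genes overlapped between the groups.

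Klrg1, an inhibitory lectin-like receptor of terminally differentiated effector cells, was at 25.7 and 33.7 CPM in GFP Treg and 0 to 0.742 CPM, median 0.0742, in minusFoxp3 libraries, 3 of which had no count. The ratio of the mean CPM values was 149, and the fitted log2 fold change was 7.86 (SE 0.82, edgeR adjusted p = 1.22e-05). Izumo1r, the folate receptor 4 used to mark Treg cells, was at 955 and 905 CPM against 354 to 499 CPM, median 431 (log2 fold change 1.17, SE 0.12). It was thus well detected without Foxp3 protein, whereas Klrg1 was at or near 0. Ikzf2, encoding Helios, was at 396 and 407 CPM against 147 to 255 CPM, median 170 (log2 fold change 1.14, edgeR adjusted p = 0.00545), but was no longer called without GFP Treg replicate 1 (adjusted p = 0.077) or 2 (0.072), nor against D0 alone (0.236).

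Some genes that define Treg cells did not pass the test. Ctla4, the checkpoint receptor that removes CD80 and CD86 from antigen-presenting cells, was at 550 and 554 CPM in GFP Treg and 240 to 549 CPM, median 311, in minusFoxp3 libraries. Its log2 fold change of 0.72 (SE 0.29) had an edgeR adjusted p of 0.218, although the groups did not overlap, the highest minusFoxp3 library being D3 replicate 2. Ikzf4, encoding Eos, was at 140 and 118 CPM against 104 to 163 CPM, median 146 (log2 fold change -0.13, SE 0.19, edgeR adjusted p = 0.845). Its ranges overlapped and its sign turned without GFP Treg replicate 2. Among the 5 Ikaros family factors, Ikzf2 was the called one (20%, against 6.13% of all genes).

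Of 30 genes known to be lower in Treg than in conventional CD4 T cells, 16 were called lower and none higher (53.3%, against 6.13%), with a median log2 fold change of -0.82. The count was 9 without GFP Treg replicate 1 and 9 without replicate 2. Pde3b, a phosphodiesterase that breaks down cyclic AMP, was at 3.23 and 4.15 CPM in GFP Treg and 35.1 to 87.4 CPM, median 57.4, in minusFoxp3 libraries (log2 fold change -3.92, SE 0.34, edgeR adjusted p = 1.84e-06). Il4, the type 2 helper cytokine, was at 0.311 and 0.0969 CPM against 1.90 to 5.32 CPM, median 3.70 (log2 fold change -4.01, SE 0.68). Tgfbr3, a coreceptor of TGF-beta, was at 9.01 and 5.62 CPM against 33.2 to 54.7 CPM, median 44.3 (log2 fold change -2.53, SE 0.28). The groups were apart for these genes.

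Il7r, the IL-7 receptor chain that Treg cells usually carry at a low level, was at 155 and 141 CPM in GFP Treg and 98.8 to 282 CPM, median 188, in minusFoxp3 libraries. The ranges overlapped and it was not called (log2 fold change -0.25, SE 0.35, edgeR adjusted p = 0.838). Id2, an inhibitor of E proteins, was at 69.4 and 86.3 CPM against 237 to 367 CPM, median 269 (log2 fold change -1.81, SE 0.20, edgeR adjusted p = 2.05e-05). Lef1, a partner of Tcf7 in naive T cells, was at 327 and 335 CPM against 407 to 594 CPM, median 511 (log2 fold change -0.60, edgeR adjusted p = 0.00602). Its groups were apart, but without GFP Treg replicate 1 or 2 its adjusted p was 0.129 or 0.102.

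Among 20 genes of IL-2 and IL-7 receptor signalling through STAT5, 6 were called higher and 2 lower (40%, against 6.13% of all genes), with a median log2 fold change of 0.13, and with 4 and 1 without GFP Treg replicate 1 and 4 and 0 without replicate 2. Il2ra, the alpha chain CD25 that gives the IL-2 receptor its high affinity, was at 789 and 725 CPM in GFP Treg and 216 to 288 CPM, median 260, in minusFoxp3 libraries (log2 fold change 1.58, SE 0.14, edgeR adjusted p = 2.48e-06). Il2rb, the shared beta chain, was at 1860 and 1574 CPM against 414 to 577 CPM, median 513 (log2 fold change 1.78, SE 0.14). Pim1, a kinase gene that STAT5 induces, was at 261 and 416 CPM against 66.2 to 126 CPM, median 88.2 (log2 fold change 1.88, SE 0.20). For these 3 genes the groups were apart. The 2 members called lower were the kinase gene Pim2 and the survival gene Bcl2 (log2 fold changes -0.60 and -0.72). Pim2 was lost without GFP Treg replicate 2 (adjusted p = 0.383), and Bcl2 without replicate 1 or 2 (0.445 and 0.0757). The feedback inhibitor genes Cish and Socs2 were not called (log2 fold changes 0.42 and -0.56, edgeR adjusted p = 0.129 and 0.246). The ligand gene Il2 was at 4.17 and 3.84 CPM against 2.61 to 5.51 CPM (edgeR adjusted p = 0.983), and Il2, Cish and Socs2 were named after their values were seen.

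The survival genes of the BCL2 family moved in both directions, with 3 of 16 called higher and 2 lower (31.2%, against 6.13%). Bcl2l1, encoding the antiapoptotic protein BCL-XL, was at 85.8 and 62.0 CPM in GFP Treg and 25.2 to 34.9 CPM, median 31.3, in minusFoxp3 libraries (log2 fold change 1.27, SE 0.15, edgeR adjusted p = 3.25e-05). Bid, a proapoptotic member that caspases activate, was at 91.5 and 67.1 CPM against 32.3 to 44.04 CPM, median 37.7 (log2 fold change 1.10, SE 0.14). Bcl2, antiapoptotic like BCL-XL, was lower, at 242 and 316 CPM against 412 to 569 CPM, median 452 (log2 fold change -0.72, edgeR adjusted p = 0.0224). All 3 genes were without overlap, but Bcl2 had an adjusted p of 0.445 without GFP Treg replicate 1 and 0.0757 without replicate 2, and neither Bcl2 nor any other called lower member stayed called in these fits.

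Among 20 costimulatory and coinhibitory genes, 6 were called higher and none lower (30%, against 6.13%). Cd83, a membrane protein of activated lymphocytes and dendritic cells, was at 208 and 145 CPM in GFP Treg and 39.7 to 58.6 CPM, median 48.1, in minusFoxp3 libraries (log2 fold change 1.90, SE 0.15, edgeR adjusted p = 7.07e-07). Havcr2, encoding the inhibitory receptor TIM-3, was at 1.99 and 3.24 CPM against 0 to 0.655 CPM, median 0.0377, with no count in 3 minusFoxp3 libraries. The ratio of its mean CPM values was 18.2 (edgeR adjusted p = 0.00168). It stayed low in both groups, and the groups did not overlap.

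Of 24 genes of the TNF receptor superfamily and its ligands, 6 were called higher and 4 lower (41.7%, against 6.13%). All 6 called higher were receptors and all 4 called lower were ligands. Tnfrsf9, the costimulatory receptor 4-1BB, was at 331 and 223 CPM in GFP Treg and 74.6 to 141 CPM, median 100.5, in minusFoxp3 libraries (log2 fold change 1.49, SE 0.14, edgeR adjusted p = 3.77e-06). Tnfrsf1b, TNF receptor 2, was at 344 and 256 CPM against 77.7 to 171 CPM, median 144 (log2 fold change 1.21, SE 0.19, edgeR adjusted p = 0.000527). Tnfrsf4, OX40, was at 575 and 489 CPM against 226 to 372 CPM, median 271 (log2 fold change 0.97, SE 0.16). For each the ranges were apart, and without GFP Treg replicate 1 the adjusted p was 0.0515 for Tnfrsf1b and 0.0571 for Tnfrsf4.

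On the ligand side, Cd40lg, with which helper T cells activate B cells and dendritic cells, was at 21.7 and 26.6 CPM in GFP Treg and 60.4 to 114 CPM, median 92.3, in minusFoxp3 libraries (log2 fold change -1.90, SE 0.21, edgeR adjusted p = 2.30e-05). Tnfsf8, the ligand of CD30, was at 64.6 and 44.8 CPM against 175 to 259 CPM, median 197 (log2 fold change -1.86, SE 0.21). Both were apart in every library. Fasl and Tnfsf14 were also called lower (log2 fold changes -1.46 and -2.09), but Fasl was lost without either GFP Treg library (adjusted p 0.21 and 0.18) and Tnfsf14 too (0.388 and 0.236), and the latter also without single minusFoxp3 libraries (0.0579 to 0.067 without D0 replicate 1, D3 replicate 1 or 2, D7 replicate 1, D14 replicate 2 or D28 replicate 1). Tnfrsf18, the receptor GITR, was at 474 and 473 CPM against 218 to 357 CPM, median 254 (log2 fold change 0.81, edgeR adjusted p = 0.004). Its adjusted p was 0.0793 and 0.057 without GFP Treg replicates 1 and 2. Without GFP Treg replicate 1, 1 receptor stayed called higher and 2 ligands lower.

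Among 20 genes of adenosine production and cyclic AMP metabolism, 4 were called higher and 4 lower (40%, against 6.13%). Entpd1, the ectoenzyme CD39 that removes phosphates from extracellular ATP, was at 71.6 and 75.9 CPM in GFP Treg and 18.0 to 37.9 CPM, median 24.2, in minusFoxp3 libraries (log2 fold change 1.55, SE 0.19, edgeR adjusted p = 4.46e-05). The 4 lower genes, Pde3b, Pde4d, Pde7a and Pde4b, all encode phosphodiesterases that degrade cyclic AMP, while Pde2a, another phosphodiesterase, was higher at 2.58 and 3.70 CPM against 0.216 to 1.16 CPM (log2 fold change 2.14, SE 0.42, edgeR adjusted p = 0.00456). Adora2a, a receptor for adenosine, was at 33.4 and 33.8 CPM against 9.66 to 23.2 CPM, median 16.9 (log2 fold change 1.08). Entpd1 and Pde3b had no overlap and stayed called without either GFP Treg library, whereas Adora2a had an adjusted p of 0.145 or 0.114 without replicate 1 or 2 and Pde2a of 0.107 without replicate 2. Against D0 alone, Pde2a, Pde4d and Pde4b were not called (0.0501, 0.130 and 0.280). Pde4d was also lost without GFP Treg replicate 1 or 2 (0.309 and 0.0594), Pde7a without replicate 2 (0.0686), and Pde4b without replicate 1 or 2 (0.490 and 0.122) and without each of 7 single minusFoxp3 libraries (D0 replicate 2, D3 replicate 2, D7 replicate 1 or 2, D14 replicate 2 and D28 replicate 1 or 2, adjusted p 0.0529 to 0.0623). In all, 2 members stayed called higher and 2 lower without replicate 1, and 1 and 1 without replicate 2.

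Of 18 genes listed as mediators of suppression, 17 passed the count filter, and 8 were called higher and none lower (47.1%, against 6.13%), also without either GFP Treg library. The median log2 fold change of the 17 was 1.32. Of the 8, Fgl2, Lrrc32, Itgb8 and Entpd1 are also in the list of genes known as higher in Treg cells. Gzmb, the protease granzyme B, was at 15.2 and 28.3 CPM in GFP Treg and 0 to 1.21 CPM, median 0.0195, in minusFoxp3 libraries, with no count in 4 of them. The ratio of its mean CPM values was 126 (edgeR adjusted p = 1.22e-05), and the highest minusFoxp3 value was that of D3 replicate 1. Lrrc32, the protein GARP that presents latent TGF-beta, was at 425 and 420 CPM against 49.3 to 90.1 CPM, median 75.9 (log2 fold change 2.58, SE 0.20, edgeR adjusted p = 4.69e-07). Ebi3, a subunit of IL-35 and IL-27, was at 10.3 and 8.08 CPM against 0.431 to 2.14 CPM, median 1.15 (log2 fold change 3.06, SE 0.39). Every one of these genes was apart between the groups.

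Among transcription factors, 6 of 22 TCF, E protein, Id and naive T cell factors were called lower and none higher (27.3%, against 6.13%). Tcf7, encoding TCF1, was at 476 and 443 CPM in GFP Treg and 1202 to 1858 CPM, median 1613, in minusFoxp3 libraries (log2 fold change -1.78, SE 0.15, edgeR adjusted p = 8.45e-07). Sox4, an HMG box factor, was at 26.1 and 17.6 CPM against 52.5 to 107 CPM, median 79.6 (log2 fold change -1.89, SE 0.29). Both were apart between the groups. The count was 3 without GFP Treg replicate 1 and 4 without replicate 2.

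Of 20 transcription factors linked to effector Treg cells and helper lineages, 5 were called higher and 1 lower (30%, against 6.13%). Prdm1, encoding Blimp-1, was at 51.5 and 42.3 CPM in GFP Treg and 8.06 to 16.2 CPM, median 12.5, in minusFoxp3 libraries (log2 fold change 1.99, SE 0.27, edgeR adjusted p = 0.000137). Gata3 was at 227 and 215 CPM against 115 to 162 CPM, median 139 (log2 fold change 0.71, SE 0.12, edgeR adjusted p = 0.000977). The groups of both genes were apart. The counts without GFP Treg replicate 1 or 2 were 3 higher and 1 lower in both fits.

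Of 31 helper cytokine and cytokine receptor genes, 27 passed the count filter, with 6 called higher and 6 lower (44.4%, against 6.13%; 3 and 4 without GFP Treg replicate 1, 3 and 3 without replicate 2). Il17f, a Th17 cytokine, was at 0.0914 and 0.0775 CPM in GFP Treg and 0.763 to 3.37 CPM, median 1.68, in minusFoxp3 libraries (log2 fold change -4.22, SE 0.72, edgeR adjusted p = 0.00125). Il17a was at 0.110 and 0.0388 CPM against 0.259 to 2.75 CPM, median 1.54 (log2 fold change -4.09, SE 1.10, edgeR adjusted p = 0.0355). Il23r, the receptor that sustains Th17 cells, had 3 counts over both GFP Treg libraries and 802 over the 10 minusFoxp3 libraries, a ratio of minusFoxp3 to GFP Treg of 60.1 (95% interval 20.5 to 292, counting error only, edgeR adjusted p = 0.0181). For these 3 genes the groups did not overlap, and both cytokines were at low levels in both groups. Il22, another cytokine of Th17 cells, named after its values were seen, was at 0.0183 and 0 CPM against 0 to 0.878 CPM, with overlap, and was not called (edgeR adjusted p = 0.516).

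Without GFP Treg replicate 1 or 2, Il17a had an adjusted p of 0.213 or 0.298 and Il23r of 0.195 or 0.19. Neither was called against D0 alone (0.0684 and 0.0844), and Il17a was also lost without each of 4 single minusFoxp3 libraries (0.0514 to 0.0533, namely D3 replicate 2, D7 replicate 2, D14 replicate 1 and D28 replicate 2). Il17f stayed called. Among the receptors called higher, Il1rl1, the IL-33 receptor ST2, was at 14.6 and 25.8 CPM in GFP Treg and 0.401 to 2.51 CPM, median 1.26, in minusFoxp3 libraries (log2 fold change 4.08, SE 0.37, edgeR adjusted p = 2.45e-06). Ifngr1, the ligand-binding chain of the interferon-gamma receptor, was at 534 and 513 CPM against 198 to 248 CPM, median 235 (log2 fold change 1.23, SE 0.09). Il12rb1, shared by the receptors of IL-12 and IL-23, was at 61.9 and 48.9 CPM against 14.9 to 28.6 CPM, median 19.997 (log2 fold change 1.48, SE 0.21). The receptors named here were apart between the groups and stayed called without either GFP Treg library.

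Of 30 homing receptors, chemokine receptors and integrins, 11 were called higher and 4 lower (50%, against 6.13%). Ccr10, a receptor for the skin chemokine CCL27 and for CCL28, was at 6.56 and 26.0 CPM in GFP Treg and 0.0432 to 0.823 CPM, median 0.115, in minusFoxp3 libraries (log2 fold change 6.56, SE 0.54, edgeR adjusted p = 8.85e-07). Ccr2, a receptor for inflammatory chemokines, was at 48.2 and 96.4 CPM against 1.85 to 6.40 CPM, median 2.93 (log2 fold change 4.47, SE 0.48). Cxcr3, linked to type 1 responses, was at 121 and 71.9 CPM against 1.04 to 14.0 CPM, median 6.68 (log2 fold change 3.78, SE 0.45). The GFP Treg replicates differed from each other for these receptors, yet both lay above every minusFoxp3 library.

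Of the 4 members called lower, 3 are described here. Ccr7, which guides T cells into lymph nodes, was at 638 and 624.6 CPM in GFP Treg and 1068 to 1427 CPM, median 1215, in minusFoxp3 libraries (log2 fold change -0.94, SE 0.12, edgeR adjusted p = 0.000117). S1pr1, needed for exit from lymphoid organs, was at 553 and 587 CPM against 831 to 1063 CPM, median 929 (log2 fold change -0.69, SE 0.10, edgeR adjusted p = 0.000405). Gpr183, the oxysterol receptor EBI2, was at 73.9 and 61.2 CPM against 140 to 227 CPM, median 173 (log2 fold change -1.34, SE 0.21). These 3 genes were apart between the groups, and 9 members stayed called higher and 3 lower without GFP Treg replicate 1.

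Cd44, an adhesion receptor used in the resting gate, was at 144 and 140 CPM in GFP Treg and 61.1 to 99.2 CPM, median 78.3, in minusFoxp3 libraries, without overlap (log2 fold change 0.88, SE 0.17, edgeR adjusted p = 0.00433). The Cd44 call was lost without GFP Treg replicate 1 (adjusted p = 0.0832). The GFP Treg libraries thus held more Cd44 transcript within the CD44lo gate.

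**Figure D3:**
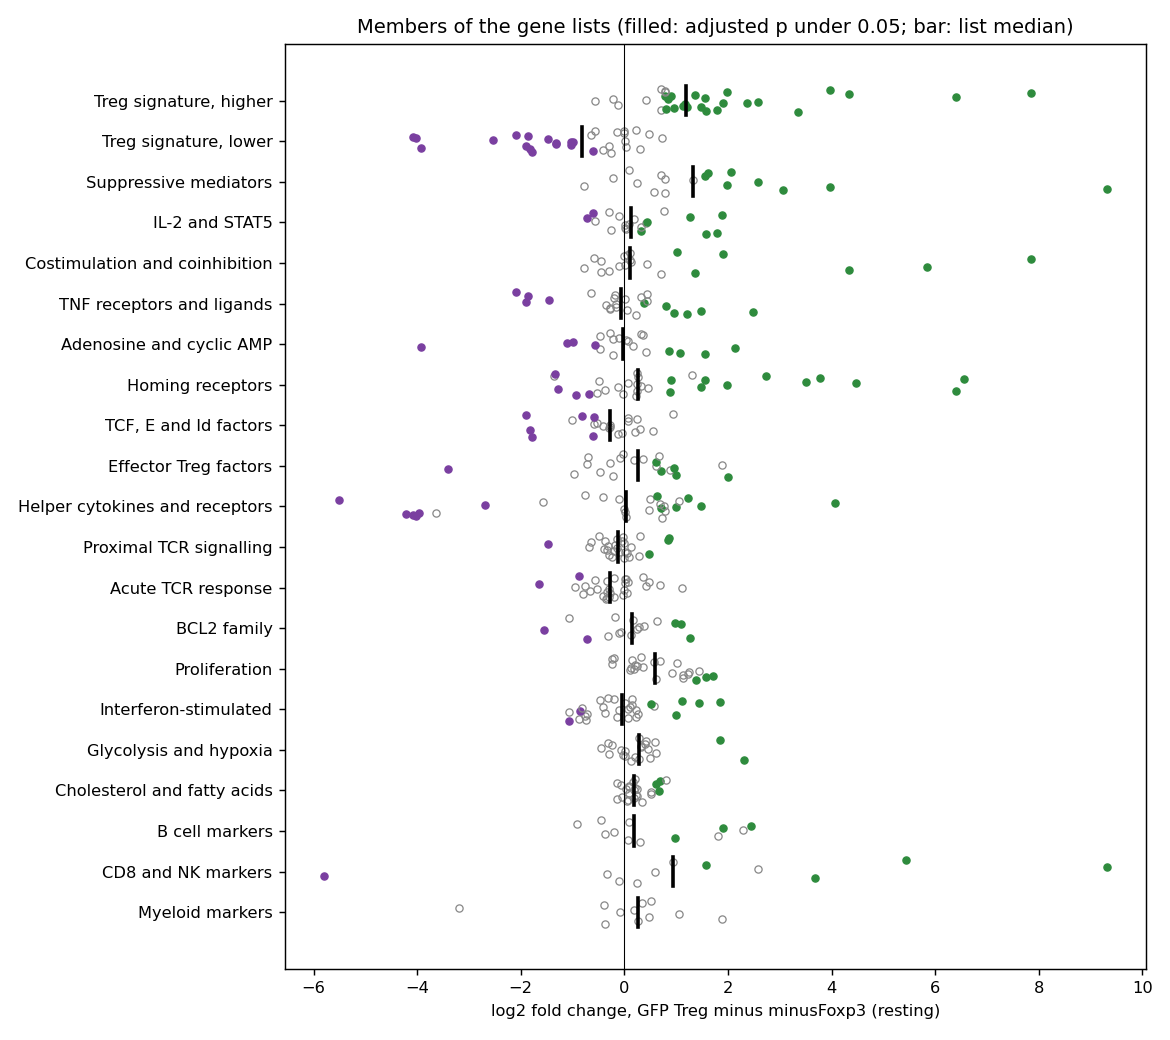
Log2 fold change of GFP Treg over minusFoxp3 cells for each tested member of the gene lists, 1 circle per gene; filled green circles were called higher, filled purple circles called lower, open circles were not called, and the black bar is the median of the list. The 30 genes known as higher in Treg cells have their median at 1.19 and the 30 known as lower at -0.82, while the median of all tested genes was -0.01.

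Genes of recent T cell receptor stimulation were called about as often as all genes. Of 30 immediate early and acute response genes, none was called higher and 2 were called lower (6.67%, near the 6.13% of all genes). Their median log2 fold change was -0.28, with a range of -1.66 to 1.11. The summed level of the list varied widely, from 10730 to 27050 CPM in minusFoxp3 and 12710 to 16190 CPM in GFP Treg libraries. Dusp6, a phosphatase of ERK kinases, was at 37.6 and 41.3 CPM in GFP Treg and 94.0 to 164 CPM, median 126, in minusFoxp3 libraries (log2 fold change -1.66, SE 0.23, edgeR adjusted p = 0.000194). The groups were apart. Of 28 proximal T cell receptor signalling genes, 3 were called higher (Trat1, Sh2d1a and Cd2) and 1 lower (Themis), 14.3% against 6.13% of all genes, and all 4 calls were lost without 1 or both GFP Treg libraries.

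Of 24 proliferation genes, 3 were called higher and none lower (12.5%, against 6.13% of all genes called and 3.93% called higher), with a median log2 fold change of 0.60, and for 15 of the 24 the groups did not overlap (against 14.2% of all tested genes, 7.09% with GFP Treg higher). Mki67, the proliferation antigen Ki-67, was at 35.9 and 33.3 CPM in GFP Treg and 10.04 to 18.5 CPM, median 13.1, in minusFoxp3 libraries (log2 fold change 1.38, SE 0.36, edgeR adjusted p = 0.0288). Ccnb2, a mitotic cyclin, was at 31.1 and 35.4 CPM against 5.82 to 13.6 CPM, median 11.0 (log2 fold change 1.71, edgeR adjusted p = 0.0128). Both were above every minusFoxp3 library. No member of this list stayed called without GFP Treg replicate 1 or 2, where Mki67 had an adjusted p of 0.273 or 0.15 and Ccnb2 of 0.105 or 0.135. Mki67 was also lost without D0 replicate 2, D3 replicate 1, D7 replicate 1 or D28 replicate 2 of minusFoxp3 (adjusted p 0.0506 to 0.0507). Against D0 alone the adjusted p was 0.252 for Mki67 and 0.143 for Ccnb2, and none of the 24 genes was called against any single day.

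Of 30 interferon-stimulated genes, 5 were called higher and 2 lower (23.3%, against 6.13% of all genes), with a median log2 fold change of -0.05. Without GFP Treg replicate 1 the counts were 3 and 0. Gbp3 and Gbp2, guanylate-binding proteins induced by interferon-gamma, were at 327 and 339 CPM against 54.4 to 154 CPM (median 93.4, log2 fold change 1.86, SE 0.21) and at 367 and 358 CPM against 109 to 195 CPM (median 133, log2 fold change 1.43, SE 0.17). Both had no overlap, with edgeR adjusted p-values of 2.78e-05 and 4.08e-05. Ifit1, a type I interferon response gene, was lower, at 51.8 and 65.7 CPM against 82.3 to 220.07 CPM, median 120.18 (log2 fold change -1.08, edgeR adjusted p = 0.0289), and was lost without GFP Treg replicate 1 or 2 (adjusted p 0.382 and 0.13).

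Of 22 glycolysis and hypoxia genes, 2 were called higher and none lower (9.09%, against 6.13% of all genes). Slc2a3, the glucose transporter GLUT3, was at 212 and 199 CPM in GFP Treg and 30.1 to 54.3 CPM, median 43.5, in minusFoxp3 libraries (log2 fold change 2.31, SE 0.16, edgeR adjusted p = 1.26e-07). P4ha1, a collagen prolyl hydroxylase, was at 250 and 212 CPM against 55.1 to 79.5 CPM, median 64.9 (log2 fold change 1.84, SE 0.14). These 2 were far apart between the groups and the other 20 members were not called. Of 25 cholesterol and fatty acid synthesis genes, 3 were called higher (Scd2, Mvd and Fasn; 12% against 6.13%), with log2 fold changes of 0.68, 0.66 and 0.61, and none of them without either GFP Treg library.

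The 15 largest changes in each direction, among called genes averaging 100 counts or more without overlap, included genes outside the lists. Hepacam2, a cell adhesion molecule, was at 15.4 and 21.5 CPM in GFP Treg and 0 to 0.280 CPM, median 0.116, in minusFoxp3 libraries (ratio of mean CPM 147, edgeR adjusted p = 1.26e-07). Atp6v0d2, a subunit of the vacuolar proton pump, was at 38.9 and 45.1 CPM against 0.0432 to 2.30 CPM, median 0.512 (log2 fold change 6.09, SE 0.61). Nedd4, a ubiquitin ligase, was at 16.1 and 18.1 CPM against 0.194 to 1.12 CPM, median 0.963 (log2 fold change 4.37, SE 0.30). All 3 were nearly absent from minusFoxp3 cells. Alox8, a lipoxygenase, and Fhip1a followed with log2 fold changes of 4.13 and 5.38.

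In the other direction, Mstn, encoding the TGF-beta family member myostatin, had no count in either GFP Treg library and was at 6.39 to 44.7 CPM, median 18.1, in minusFoxp3 libraries. Against the limit of 3 counts per library that a count of 0 allows, it was at least 363-fold lower in GFP Treg cells (edgeR adjusted p = 0.000117). Fam163b also had no count in GFP Treg and was at 0.844 to 4.90 CPM, median 2.81, in minusFoxp3 libraries, at least 48.1-fold lower. These were the 2 genes among the 30 without any GFP Treg read. Sntg2, encoding syntrophin gamma 2, had 1 count over the GFP Treg libraries and 5386 over the minusFoxp3 libraries, a ratio of 1210 with a 95% interval of 217 to 47900 for counting error. Ffar4, a receptor for long-chain fatty acids, had 1 count against 1702, a ratio of 383 (68.6 to 15100).

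Ggt5, a gamma-glutamyltransferase that cleaves leukotriene C4, was at 0.146 and 0.136 CPM in GFP Treg and 21.9 to 35.4 CPM, median 28.0, in minusFoxp3 libraries (log2 fold change -7.58, SE 0.44, edgeR adjusted p = 3.26e-08). Ccl20, the ligand of CCR6, was at 0.804 and 0.174 CPM against 40.3 to 151 CPM, median 76.1 (log2 fold change -7.36, SE 0.96). Scart2, a scavenger receptor gene known from gamma delta T cells, was at 0 and 0.0775 CPM against 4.71 to 45.6 CPM, median 14.0 (log2 fold change -8.51, SE 0.94). In the resting libraries compared, these genes were thus detected almost only in the minusFoxp3 cells. Their levels in the plusFoxp3 libraries are not given here. Pcsk1, a prohormone convertase, was at 0.146 and 0.0388 CPM against 3.21 to 7.90 CPM, median 4.94 (log2 fold change -5.67, SE 1.35, edgeR adjusted p = 0.0167), but had an adjusted p of 0.145 or 0.194 without GFP Treg replicate 1 or 2.

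Foxp3 binds forkhead motifs, so the 250 bases before the start of the canonical transcript were searched on both strands for TGTTTAC (forkhead), TTCNNNGAA (STAT) and CTTTGAT (TCF/LEF). A window was found for 19229 of the 20520 tested genes. The forkhead letters were present for 2.41% of genes called higher, 4.27% of those called lower and 2.64% of all. STAT letters were present for 5.33%, 5.21% and 6.51%, and TCF/LEF letters for 1.9%, 1.9% and 2.69%. These shares are descriptions, and a match is not a binding site. Windows of 2 genes called higher and 1 called lower that hold the forkhead letters are shown 5′ to 3′ in the direction of transcription with the match in capitals, on either strand. That of Il1rl1 lies at chr1:40478537-40478786 (GRCm39, plus strand, before a start site inside the gene's annotated span), that of Klrg1 at chr6:122259915-122260164 (minus strand) and that of Pcsk1 at chr13:75237695-75237944 (plus strand).
Il1rl1: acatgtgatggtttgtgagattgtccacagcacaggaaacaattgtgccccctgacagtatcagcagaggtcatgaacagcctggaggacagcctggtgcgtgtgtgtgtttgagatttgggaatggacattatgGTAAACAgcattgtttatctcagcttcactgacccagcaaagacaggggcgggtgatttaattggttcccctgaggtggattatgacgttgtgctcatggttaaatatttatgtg
Klrg1: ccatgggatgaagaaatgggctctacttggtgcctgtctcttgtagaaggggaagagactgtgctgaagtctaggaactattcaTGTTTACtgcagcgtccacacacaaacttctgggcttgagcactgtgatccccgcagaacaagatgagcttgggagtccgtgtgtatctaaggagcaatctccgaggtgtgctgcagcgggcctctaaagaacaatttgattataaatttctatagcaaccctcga
Pcsk1: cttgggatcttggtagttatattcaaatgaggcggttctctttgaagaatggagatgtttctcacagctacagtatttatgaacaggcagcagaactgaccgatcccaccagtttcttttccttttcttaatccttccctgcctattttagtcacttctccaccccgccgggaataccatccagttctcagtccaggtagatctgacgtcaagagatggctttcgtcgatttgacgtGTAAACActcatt
The match of Il1rl1 lay 115 bases before the start, that of Klrg1 166 and that of Pcsk1 13.

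Adjacent called genes were compared by direction. Of 20493 pairs of adjacent tested genes, both members were called in 202 (0.986%), in the same direction in 170 (84.2% of them) and in opposite directions in 32. Of all called genes, 64.1% were higher and 35.9% lower, and the share of pairs expected from this mix was not computed. Some pairs lie within the same locus, such as the Ighj gene segments. The annotated spans of the genes, introns included, overlap in 41 of the 170 pairs. Where such genes share exon sequence, reads counted without strand cannot be told apart between them. Klrg1 and the predicted gene Gm6637, which lies 12781 bases from it on chromosome 6, were both higher. Gm6637 was at 19.7 and 18.0 CPM in GFP Treg and 0 to 0.205 CPM, median 0.0422, in minusFoxp3 libraries, a ratio of mean CPM of 266 (edgeR adjusted p = 5.41e-08). Ccl20 and Daw1, 40584 bases apart on chromosome 1, were both lower, Daw1 being at 0 and 0.407 CPM against 4.58 to 18.8 CPM (log2 fold change -5.35, SE 0.94). Of 13 tested genes around Foxp3 on chromosome X, 3 were called (23.1%, against 6.13%). Pim2 was lower (log2 fold change -0.60, edgeR adjusted p = 0.0165, lost without GFP Treg replicate 2). The calcium channel gene Cacna1f and Ppp1r3f (log2 fold change 1.66, SE 0.17) were higher. Ppp1r3f overlaps the start of Foxp3 on the other strand, so reads from the stretch they share cannot be told apart.

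Markers of other cell types were checked as whole lists. Of 12 B cell genes, 3 were called higher (Ighm, Ighd and Cd79b) and none lower (25%, against 6.13%), and the summed level of the list was 2171 to 2188 CPM in GFP Treg and 519 to 680 CPM in minusFoxp3 libraries. Almost all of this was Ighm, the immunoglobulin mu chain, at 2123 and 2121 CPM against 489 to 642 CPM, median 590 (log2 fold change 1.91, SE 0.11, edgeR adjusted p = 3.26e-08). The B cell surface gene Ms4a1 (1.28 and 1.69 CPM against 0.0633 to 1.84 CPM) and the factor Pax5 (0.164 and 0.388 CPM against 0.206 to 0.543 CPM), named here as defining markers after their values were seen, were near 0 in both groups and not called. Cd79b, a chain of the B cell receptor complex, was at 29.1 and 36.3 CPM against 13.7 to 21.3 CPM, median 17.2, without overlap (log2 fold change 0.97, SE 0.16, edgeR adjusted p = 0.000897, and 0.0555 without GFP Treg replicate 2). Its partner Cd79a was at 3.25 and 8.49 CPM against 3.61 to 9.09 CPM and was not called. Outside the list, further called genes of the immunoglobulin heavy chain locus were higher, named here after their values were seen. They were Ighg1, Ighg3, Ighj1, Ighj2, Ighj3, Ighj4 and Ighd4-1 (log2 fold changes 3.79 to 9.01), and others may exist. The part of B cells in the differences of Ighm, Ighd, Cd79b and these genes was not tested. Ighd was called higher as well (log2 fold change 2.45, edgeR adjusted p = 0.00329), but not without GFP Treg replicate 2 (0.079).

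Of 14 CD8 T cell and NK cell genes, 11 were tested, with 4 called higher and 1 lower (45.5%, against 6.13% of all genes). The summed level of the list was 110.2 to 127 CPM against 45.9 to 66.8 CPM. The higher ones were Gzmb, Prf1, Ccl5 and Klrb1c, of which the first 2 encode cytotoxic granule proteins. Ccl5 was at 19.3 and 8.97 CPM in GFP Treg and 0.0216 to 0.891 CPM, median 0.340, in minusFoxp3 libraries (log2 fold change 5.43, SE 0.49). Klrb1c overlapped between the groups and was lost without GFP Treg replicate 1 (adjusted p = 0.5). Klrd1, an NK cell receptor subunit, was lower, with 2 counts over the GFP Treg libraries against 578, a ratio of 65.0 (95% interval 17.9 to 538), but was lost without GFP Treg replicate 1 or 2 (adjusted p 0.2 and 0.0769). The defining CD8 gene Cd8a was at 0.640 and 0.930 CPM against 0.0412 to 2.53 CPM, and Cd8b1 at 24.7 and 24.5 CPM against 21.5 to 34.4 CPM, with overlap for both. The part of other cells in the differences of the remaining genes of this list was not tested.

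No myeloid gene (11 of 16 tested) and no erythroid, platelet or stromal gene (9 of 13 tested) was called (0% of each list, against 6.13% of all genes). Lists of this length can hold no call at that share. Log2 fold changes of the myeloid members ranged from -3.2 to 1.88. The summed myeloid level was 7.36 to 13.2 CPM in GFP Treg and 4.34 to 26.3 CPM in minusFoxp3 libraries. Of 8 double-positive thymocyte genes, 6 were tested, with 1 called higher (Dntt) and 1 lower (33.3%, against 6.13% of all genes). The summed level of the list was 32.4 to 37.3 CPM against 62.7 to 103 CPM. Among 82 ribosomal protein genes 1 was called (1.22%, against 6.13%). Xist, expressed in female cells, was at 180 and 191 CPM in GFP Treg and 143 to 342 CPM in minusFoxp3 libraries and was not called (edgeR adjusted p = 0.886). None of the 6 sex chromosome genes was called (0%, against 6.13%).

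Each day of the minusFoxp3 cells was also set against the GFP Treg libraries. The comparison called 597 genes (2.91%) at D0, 529 (2.58%) at D3, 564 (2.75%) at D7, 555 (2.7%) at D14 and 546 (2.66%) at D28. These 5 contrasts share the 2 GFP Treg libraries, so they are not independent of each other. Of the 1258 genes called against all days together, 1255 had the same sign on each day, 302 were called on all 5 days and 361 on none. The 1258 genes were chosen by the mean of these same contrasts, so their agreement in sign was largely set by the choice. Of the 30 genes known as higher in Treg cells, 17 were called higher on each day and none lower, where 1.7%, 1.36%, 1.51%, 1.67% and 1.43% of all genes were called higher from D0 to D28. Of the 30 known as lower, 11, 9, 13, 13 and 11 were called lower, against 1.21%, 1.21%, 1.24%, 1.04% and 1.23% of all genes. Foxp3 had log2 fold changes of 3.17 to 3.66 by day, Il2ra of 1.49 to 1.64 and Tcf7 of -1.96 to -1.66.

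Among the minusFoxp3 days themselves, edgeR called 0 of 20520 genes, with 559 (2.72%) at an unadjusted p under 0.05, and a likelihood ratio test in DESeq2 on the 10 libraries called 93. Since 8 of the 10 libraries came from treated mice, the untreated day is the one in which treatment did not differ from GFP Treg. Of the 597 genes called there, 582 were among the 1258, whose contrast includes this day. Among the genes described above, Ikzf2, Cd44, Tnfrsf18, Fasl, Tnfsf14, Bcl2, Pim2, Il17a, Il23r, Mki67, Ccnb2, Ifit1, Cacna1f and Ighd were not called against D0 alone (adjusted p 0.0559 to 0.252). Cd2, Trat1, Sh2d1a, Scd2, Mvd and Fasn were not called there either (edgeR adjusted p 0.0531 to 0.335). Nor were Pde2a, Pde4d and Pde4b, as given above. A few genes of the largest changes varied by day, Ighj1 most, from 2.18 to 6.75, with 1 minusFoxp3 library (D0 replicate 2) at 7.14 CPM and the others at most 0.488 CPM. The call of Ighj1 was lost against D0 alone (adjusted p = 0.453).

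The most similar comparison in the series was that of active cells (CD44hi) of the same groups and days, in which GFP Treg differed from minusFoxp3 cells in 3351 of 20790 genes (16.1%). Of the 1253 genes called in resting cells and tested in the joint fit of 44 libraries, 763 were also called in active cells in the same direction and 40 in the opposite direction. The difference between the 2 states was tested itself, as an interaction, and called 1017 genes (4.89%), 554 with a more positive value in resting cells (2.66%) and 463 with a more negative one (2.23%). It called 279 of the 1253 genes. The 1017 were also sorted by the sign of the fitted values alone, with no call required in either state. By sign, 337 were positive in resting and negative in active cells, 259 the reverse, and 421 had the same sign in both. A difference in sign is thus not a called change of direction. Without 1 of the 4 GFP Treg libraries, the count was 433 to 554. Foxp3 had a log2 fold change of 3.83 in active cells, and its difference between the states was not called (edgeR adjusted p = 0.24).

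Of the 30 genes known as higher in Treg cells, 6 had a more positive value in resting cells and 9 a more negative one. Over all genes these shares were 2.66% and 2.23%. On the log2 scale Ikzf2 differed by 1.14 in resting and 3.77 in active cells (difference -2.62, SE 0.38, edgeR adjusted p = 6.29e-05), with 653 and 608 CPM in active GFP Treg and 35.2 to 61.6 CPM in active minusFoxp3 libraries. Ikzf4 had values of -0.13 and 2.05 (difference -2.18, SE 0.28), Tnfrsf9 of 1.49 and 5.10 (difference -3.61, SE 0.37) and Itgb8, an integrin that activates TGF-beta, of 1.98 and 6.44 (difference -4.46, SE 0.57). For Ikzf2, Ikzf4 and Tnfrsf9 the active minusFoxp3 libraries lay below the resting ones. Lef1 was lower in resting GFP Treg but higher in active GFP Treg, with log2 fold changes of -0.59 and 1.63 in the joint fit (difference -2.23, SE 0.21, edgeR adjusted p = 1.13e-07).

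Of 30 homing genes, 10 had a more positive value in resting cells and 2 a more negative one. Among 24 proliferation genes the counts were 8 and 0, and among 20 transcription factors of effector Treg cells 6 and 1. Over all genes the shares were 2.66% and 2.23%. The list counts of the state difference were not repeated without single GFP Treg libraries. Ccr2 had a log2 fold change of 4.47 in resting and -1.85 in active cells (difference 6.32, SE 0.80, edgeR adjusted p = 1.09e-05), with 103 and 190 CPM in active GFP Treg and 277 to 684 CPM in active minusFoxp3 libraries. Gzmb had 9.33 and -0.65 in the joint fit (difference 9.98, SE 1.13), where the resting value rests on minusFoxp3 libraries without counts. Fgl2 had 3.97 and 0.22 (difference 3.76, SE 0.46), Itgae 6.41 and 3.18 (difference 3.23, SE 0.53) and Mki67 1.38 and -0.84 (difference 2.22, SE 0.48, edgeR adjusted p = 0.00515). Active minusFoxp3 cells carried more of these transcripts than resting ones, with medians of 177 against 4.84 CPM for Fgl2, 59.5 against 2.85 CPM for Itgae and 52.9 against 13.1 CPM for Mki67.

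**Figure D4:**
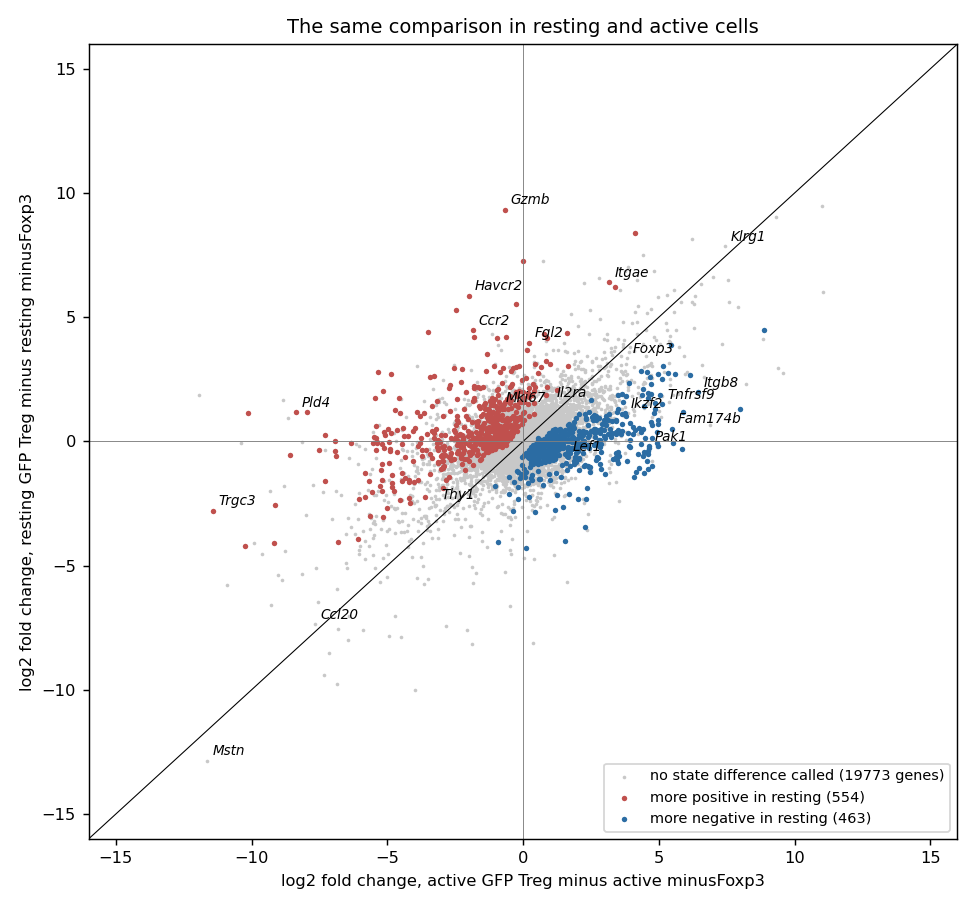
Log2 fold change of GFP Treg over minusFoxp3 in resting cells (vertical) against that in active cells (horizontal), 1 point per gene; red points are the 554 genes with a more positive and blue points the 463 with a more negative value in resting cells by the interaction test, and the diagonal marks equal values. Foxp3 lies near the diagonal, Gzmb and Ccr2 lie above it at the left of 0, and Lef1 lies below it at the right of 0.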

How the data were processed

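Sorted cells (1 to 2 ng RNA) were amplified with the SMART-Seq v4 kit, and polyA RNA was sequenced as read pairs. The authors deposited raw counts per gene name, made with featureCounts over GENCODE genes of GRCm39 without using strand; the file headers of the libraries used show no mapping quality filter. The aligner is STAR in the methods of the study and Bowtie2 in the submitters' processing notes. The 20 degron libraries were not used here.

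TMM factors and the quasi-likelihood test of edgeR 4.0.16 (R 4.3.3, robust) were applied to the counts of genes with a mean count of at least 10, in 1 fit of 22 resting libraries with a mean per group. GFP Treg was set against the equally weighted mean of the 5 minusFoxp3 groups. The difference between states came from a fit of 44 libraries. CPM values carry no TMM factors. Scripts were tested on simulated data. Libraries and gene lists were chosen with earlier results of these data known. The genes named were Foxp3 and a fixed set of markers, up to 4 called genes per list and direction by size of change, the 15 largest changes in each direction among called genes averaging 100 counts or more without overlap, and 5 per direction for the state difference. Exceptions are marked in the text. A few of the genes so chosen are not reported here. Promoter windows were read from the GRCm39 genome with GENCODE canonical transcripts, since the RefSeq promoter table given was of another build. Figures were drawn with matplotlib 3.10.9.

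The methods name 2 independent biological replicates per group, and no pair of replicates agreed within sampling noise (chi-square per gene at least 26.1). Replicate numbers were checked as pairs. The correlation of their deviations from the group means was -0.0399 to 0.0458 for GFP Treg with each minusFoxp3 group and 0.0513 to 0.14 among minusFoxp3 groups. The latter were all positive, though small. The labels name no shared batch, and the main fit used the numbers as names only. Alternatives were RLE size factors, other count filters, DESeq2 1.42.0, a replicate block, fits of 12 libraries, other sets of days and leaving out each replicate.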

Additional observations from a re-analysis of the deposited data

Results flagged for a closer look

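Among 134 named genes, 15 had 1 of the 10 minusFoxp3 libraries far from the others, measured as its gap to the nearest library over the range of the group. For normally distributed values, chance gives about 1 in 20 groups. That rate need not hold for skewed CPM values near 0, which several of these genes have. The cause was not tested. D3 replicate 2 was high for Ctla4 (549 CPM), Myb (77.4 CPM), Ighd (7.16 CPM) and Fcmr (4.22 CPM) and low for Ikzf4 (104 CPM). D3 replicate 1 was high for Gzmb (1.21 CPM) and Atp6v0d2 (2.30 CPM). D14 replicate 1 was high for Tnfrsf9 (141 CPM) and D14 replicate 2 for Bbc3 (41.0 CPM). D28 replicate 1 was high for Tnfsf14 (9.82 CPM) and D28 replicate 2 for Fhip1a (1.64 CPM). D7 replicate 2 was high for Irf7 (371 CPM) and Pld4 (1.37 CPM). D0 replicate 2 was high for Ighj1 (7.14 CPM) and low for Nedd4 (0.194 CPM).

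The difference between GFP Treg and minusFoxp3 cells itself differed between resting and active cells for 1017 genes by edgeR's test of the interaction. The largest more positive values in resting cells were those of Gzmb (9.98), Pld4 (9.56), Trgc3 (8.63), Arl11 (8.04) and Havcr2 (7.84), on the log2 scale. Of these, Pld4, Trgc3 and Arl11 were not called in resting cells and were detected mainly in active minusFoxp3 libraries, at medians of 10.4, 7.44 and 4.45 CPM against 0 to 0.0832 CPM in active GFP Treg. The largest more negative values were those of Gm3739 (-4.98), Fam174b (-4.97), Pak1 (-4.85), Gm3667 (-4.74) and Itgb8 (-4.46). Gm3739 and Gm3667 are predicted genes of 1 family of near-identical copies, so their counts are uncertain. The calls of Pld4, Trgc3, Arl11 and Pak1 were lost when single GFP Treg libraries were left out, with adjusted p-values up to 0.153, 0.178, 0.195 and 0.177.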

How the results depend on the processing

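The count of 1258 genes was 2328 without the count filter and 597 against D0 alone, and 513 to 1263 when 1 library was left out, lowest without GFP Treg replicate 1. For D0, D3, D7, D14 and D28 in turn, no filter gave 1436, 1316, 1322, 1389 and 1301 genes, DESeq2 gave 1036, 1025, 1014, 1069 and 977, and leaving out 1 replicate gave 273 to 408, 252 to 329, 238 to 316, 245 to 355 and 237 to 324. Among the minusFoxp3 days, where edgeR called 0, no filter gave 963, DESeq2 93 and leave-one-out 0 to 5. For the state difference, no filter gave 1866 and leave-one-out 433 to 1191. The 127 called members of the gene lists were 78 against D0 alone and 73 to 131 with 1 library left out. Of the named genes, 120 were called, and 79 to 118 with 1 library left out. The causes were not tested. The remaining alternatives for these results stayed within 1.5 times the reported counts, among them DESeq2 with 1686 and RLE size factors with 1258 genes.

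With the replicate block, 1488 genes were called, 762, 684, 720, 776 and 703 by day, 0 among the days and 1349 for the state difference; no count moved by over 1.5 times, and the numbers mark no shared batch in the labels.

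Of 2770 alternative values for 126 named genes, 2608 kept direction and side of the threshold, 159 were no longer called, 2 became called (Ctla4, with adjusted p-values of 5.36e-05 without the filter and 0.042 with 12 libraries only) and 1 reversed, that of Ikzf4, which was -0.264 without GFP Treg replicate 1 and 0.0011 without replicate 2. In every alternative 70 of the 120 stayed called. With 2 GFP Treg libraries, small differences rest on the spread of the other groups, and 343 called genes had a mean count under 100.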
